A study of Mus musculus with 6 samples.

Results

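De novo fatty acid synthesis was followed through 10 genes in subcutaneous white adipose tissue (SC-WAT) taken from the groin of Egr1+/+ and Egr1-/- females. These genes were chosen by name. Acly, Acaca and Fasn make the fatty acid, and Acacb encodes a carboxylase at the outer mitochondrial membrane. Me1 supplies reducing power, and Elovl6, Scd1 and Scd2 lengthen and desaturate the fatty acid. Srebf1 and Mlxipl encode transcription factors of the pathway. The 10 genes were found by symbol among 47069 gene identifiers, and all 10 had enough counts to be tested. The samples were fat pads of 3 Egr1+/+ and 3 Egr1-/- females, of strain C57BL/6 in the labels and C57BL/6 J in the study's methods, killed at 2 weeks of age, with 1 library per mouse. The study's methods give rodent chow for all animals, but do not say what the pups themselves fed on at 2 weeks. The labels give no treatment. The Egr1-/- mice lack EGR1 protein function in every tissue, through a LacZ insertion and a frameshift in Egr1, so that part of the transcript can still be made and counted. Whole fat pads were used, so fewer adipocytes and less RNA per adipocyte cannot be told apart.

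De novo lipogenesis turns carbohydrate carbon into fat. Citrate leaves the mitochondrion and is split into acetyl-CoA by ATP citrate lyase, acetyl-CoA carboxylase makes malonyl-CoA from it, and fatty acid synthase builds palmitate with NADPH as reductant. Palmitate is lengthened by ELOVL6 and desaturated by the stearoyl-CoA desaturases. In adipose tissue the genes are driven by the carbohydrate response factor ChREBP, encoded by Mlxipl, and by SREBP1, encoded by Srebf1. The pathway is known to be active in white fat after weaning onto carbohydrate, lower in pups fed on fat-rich milk, and high in beige and brown fat that burns and remakes lipid.

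Egr1 itself was counted 353, 241 and 711 times in Egr1+/+ animals and 103, 84 and 57 times in Egr1-/- animals, so its level followed the genotype labels. Total counts per mouse lay between 29661984 and 42357981, and mitochondrial genes took 50.0% to 66.3% of them. The tissue label was checked with marker genes. The summed level of 10 adipocyte markers, led by Fabp4 and Cd36, was 10173 to 10869 CPM in Egr1+/+ and 8595 to 10379 CPM in Egr1-/- SC-WAT. CPM are counts scaled to a common library size, which edgeR's TMM method sets. Skeletal muscle markers, led by Myh4 and Acta1, summed to 1098, 3477 and 213 CPM in the Egr1+/+ mice and to 103, 367 and 2781 CPM in the Egr1-/- mice, so muscle RNA varied between mice of both genotypes. Mammary epithelium markers, led by Epcam and Cdh1, summed to 3.90 to 17.2 CPM and skin markers, led by Sbsn and Dsg1a, to 3.56 to 27.8 CPM.

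Across the 10 genes, Acacb, Elovl6 and Mlxipl were higher in all Egr1-/- mice than in any Egr1+/+ mouse, Me1 was lower in every Egr1-/- mouse, and the genotypes overlapped for the other 6. The shares of all 17667 genes tested that were separated in this way were 8.15% in the higher and 8.1% in the lower direction. The median log2 fold change of the 10 genes was 0.18, against 0.0011 for all genes tested. With edgeR's quasi-likelihood test, adjusted by Benjamini-Hochberg over all genes, 0 of the 10 genes passed an adjusted p of 0.05, where 0.017% of all genes did. Egr1 itself, at a log2 fold change of -2.19, had an adjusted p of 0.0878 in this edgeR test. Missing this threshold therefore does not show that a gene was unchanged. Before adjustment, 5 of the 10 had a p under 0.05, 3 higher (Acacb, Elovl6 and Mlxipl) and 2 lower (Me1 and Scd1), against 10.7% of all genes. That count was 3 without Egr1-/- replicate 3. DESeq2 passed 3 of the 10, where it passed 2.14% of its genes. These were Acacb, Elovl6 and Mlxipl, all higher, against 0.843% of its 15542 genes called higher, and 0 of the 10 lower against 1.3%.

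**Figure D1:**
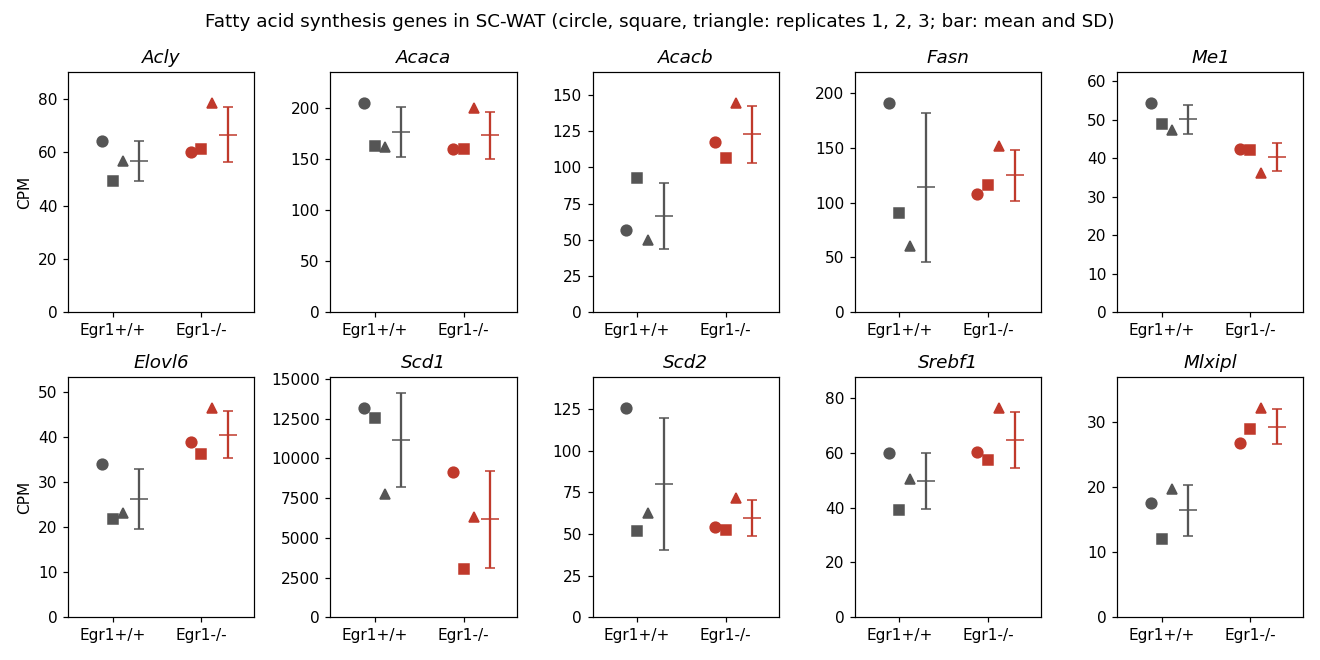
Expression of the 10 genes in CPM on linear axes starting at 0, with one point per mouse (circle, square and triangle for replicates 1, 2 and 3), and beside the points the mean and SD of the 3 mice of each genotype. The red Egr1-/- points lie above all grey Egr1+/+ points for Acacb, Elovl6 and Mlxipl and below them for Me1, while Fasn and Scd2 were most variable among Egr1+/+ mice.

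The levels of the 10 genes were compared per kilobase of exon, as CPM per kb averaged over the 6 mice. Scd1 was far above the rest, at 1769 CPM per kb, and its range over mice did not overlap that of the next gene. Scd2 (12.8 CPM per kb), Me1 (11.7), Acly (11.7), Fasn (10.9), Acaca (10.3), Srebf1 (10.1) and Acacb (9.81) followed. Elovl6, at 5.20 CPM per kb, and Mlxipl, at 4.14 CPM per kb, were lowest. After Scd1, each gene's range over the 6 mice overlapped that of its neighbour in this order. Such ranges do not compare genes within a mouse, so whether neighbours differed was not tested. Elovl6 and Mlxipl lay wholly below Scd2, Me1, Acly and Acaca. Scd1 alone held 82.3% to 95.7% of all counts on the 10 genes.

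Acly encodes ATP citrate lyase, the enzyme that makes cytosolic acetyl-CoA. The gene (ENSMUSG00000020917.17) lies on the minus strand of chromosome 11, between 100476353 and 100528000 in GRCm38. Its level was 64.3, 49.0 and 56.8 CPM in the Egr1+/+ mice and 60.0, 61.3 and 78.4 CPM in the Egr1-/- mice. The genotypes overlapped, with Egr1-/- replicate 3 the highest mouse. In edgeR Acly had a log2 fold change of 0.23 (SE 0.149) and an adjusted p of 0.643.

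The acetyl-CoA carboxylases make malonyl-CoA in different places. ACC1, encoded by Acaca, is cytosolic and feeds fatty acid synthesis, while ACC2, encoded by Acacb, sits at the outer mitochondrial membrane, where its malonyl-CoA inhibits fatty acid entry through CPT1. Acaca (ENSMUSG00000020532.18, chromosome 11, 84129672 to 84401651, plus strand) had 205 CPM in Egr1+/+ replicate 1 and 163 CPM in each of the other Egr1+/+ mice. In the Egr1-/- mice it had 160.3, 160.4 and 200.2 CPM. The genotypes covered the same range, and edgeR gave a log2 fold change of -0.03 (SE 0.148) and an adjusted p of 0.967. Its sign turned when single mice were left out, between -0.14 and 0.08.

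Acacb (ENSMUSG00000042010.16, chromosome 5, 114146535 to 114250761, plus strand) had 56.5, 92.5 and 49.8 CPM in the Egr1+/+ mice and 117.4, 106.4 and 144.3 CPM in the Egr1-/- mice. Every Egr1-/- mouse was above every Egr1+/+ mouse, and the mean was 1.85 times higher, at 123 ± 19.5 CPM (SD, n = 3) against 66.3 ± 23.0 CPM (SD, n = 3). Its log2 fold change of 0.89 (SE 0.229, the standard error of the fit) had an unadjusted p of 0.00369 in edgeR and an adjusted p of 0.227. The DESeq2 adjusted p was 0.00247. With each mouse left out, the log2 fold change stayed between 0.72 and 1.21 and the unadjusted edgeR p at or under 0.0176.

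ACC2 is the main carboxylase of skeletal muscle, and muscle markers varied 33.8-fold between the 6 mice. Among Egr1+/+ mice, Acacb was highest in replicate 2, which also had the highest muscle marker sum. Egr1-/- replicate 1 had the lowest muscle marker sum of all mice, 103 CPM, and its Acacb level of 117.4 CPM was above that of every Egr1+/+ mouse. Beige or brown adipocyte markers also moved with genotype. The sum of 8 such markers was 656, 516 and 504 CPM in the Egr1+/+ mice and 1279, 909 and 1514 CPM in the Egr1-/- mice. All 7 of them that could be tested were higher in every Egr1-/- mouse, and all 8 were detected. Ucp1, the uncoupling protein that defines these cells, was 341 ± 52.1 CPM (SD, n = 3) in Egr1+/+ fat pads and 792 ± 197 CPM (SD, n = 3) in those of Egr1-/- mice. The part of muscle and of these adipocytes in the level of Acacb was not tested.

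**Figure D2:**
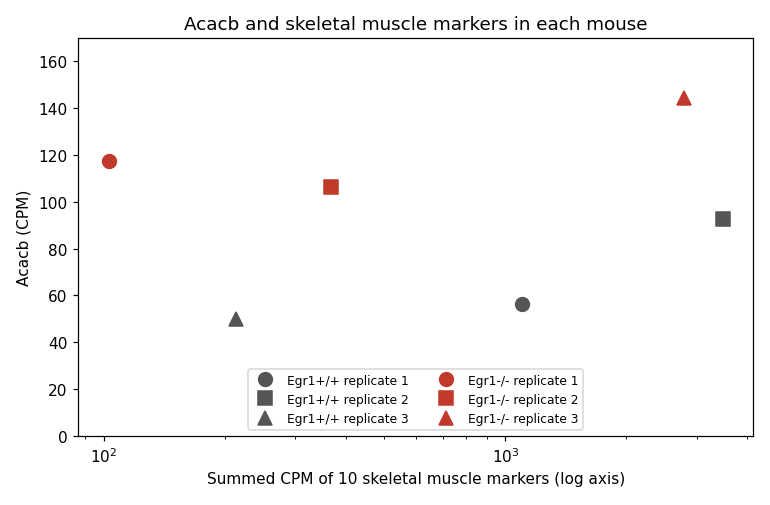
Acacb level in CPM (linear axis from 0) against the summed CPM of 10 skeletal muscle markers (log axis), one point per mouse, with grey for Egr1+/+ and red for Egr1-/-. The 3 Egr1-/- mice lie at 106.4 to 144.3 CPM and the 3 Egr1+/+ mice at 49.8 to 92.5 CPM, and the muscle marker sums of the genotypes overlap (the part of muscle in the Acacb level was not tested).

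The balance between the carboxylases was then taken within each mouse, which removes library size. Per kb of exon, the Acacb level was 0.488, 1.01 and 0.542 times the Acaca level in the Egr1+/+ mice and 1.30, 1.18 and 1.28 times in the Egr1-/- mice. Acacb thus exceeded Acaca per kb in every Egr1-/- mouse, while the Egr1+/+ mice ranged from below Acaca to a level with it. This rank depends on the length used. The union of exons is 17074 bases for Acaca and 9632 for Acacb, while their longest coding transcripts have 9513 and 8788 bases. In CPM, without a length, Acacb was below Acaca in every mouse. Which of them is more abundant therefore cannot be told, while the genotype difference in the log2 ratio does not depend on length. The log2 ratio was -1.46 ± 0.563 (SD, n = 3) in Egr1+/+ and -0.50 ± 0.0771 (SD, n = 3) in Egr1-/- SC-WAT, a difference of 0.96. An exact two-sided permutation test gave p = 0.1, the lowest value possible with 3 mice per genotype. The highest Egr1+/+ ratio again belonged to replicate 2, the mouse with the most muscle marker RNA.

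**Figure D3:**
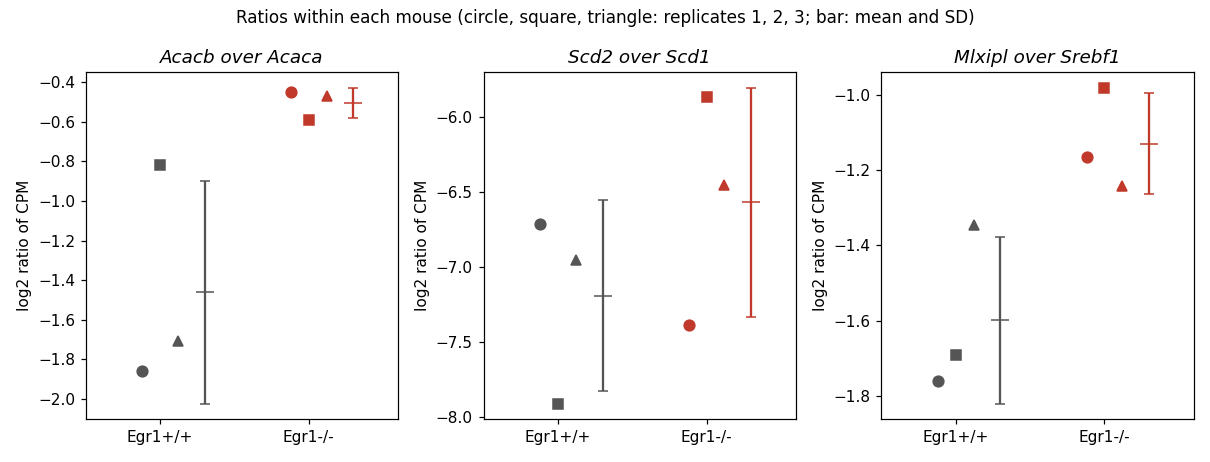
The log2 ratio of CPM of Acacb over Acaca, Scd2 over Scd1 and Mlxipl over Srebf1 within each mouse (points, shapes as replicates 1, 2 and 3), with the mean and SD of each genotype (n = 3). The genotypes do not overlap for Acacb over Acaca and for Mlxipl over Srebf1, and overlap for Scd2 over Scd1.

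Fasn encodes fatty acid synthase, which builds palmitate, and is the gene most often taken to stand for lipogenesis. The gene (ENSMUSG00000025153.9) lies on the minus strand of chromosome 11, between 120805846 and 120824547. Its level was 190.6, 90.7 and 60.5 CPM in the Egr1+/+ mice and 107.5, 116.3 and 151.4 CPM in the Egr1-/- mice. The 3 Egr1-/- mice lay inside the range of the Egr1+/+ mice, which was set by replicate 1 at the top and replicate 3 at the bottom. For Fasn edgeR gave a log2 fold change of 0.13, with a standard error of 0.356 that was among the largest of the 10 genes, and an adjusted p of 0.925 in edgeR. Leaving out Egr1+/+ replicate 1 gave 0.71 with an unadjusted edgeR p of 0.0117, and leaving out Egr1+/+ replicate 3 gave -0.17. The estimate was -0.0043 without Egr1+/+ replicate 2 and -0.024 without Egr1-/- replicate 3. The direction for Fasn thus rests on which mice are counted.

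Me1 encodes the cytosolic malic enzyme, which makes NADPH from malate. The gene (ENSMUSG00000032418.15) lies on the minus strand of chromosome 9, between 86581371 and 86695953. Its level was 54.3, 48.8 and 47.2 CPM in the Egr1+/+ mice and 42.5, 42.2 and 36.2 CPM in the Egr1-/- mice. Me1 was the only one of the 10 genes whose Egr1-/- levels all lay below the lowest Egr1+/+ level. Its log2 fold change was -0.31 (SE 0.116), with an unadjusted p of 0.0236 and an adjusted p of 0.375 in edgeR, and a DESeq2 adjusted p of 0.385. Leaving out Egr1-/- replicate 3 gave -0.24 with an unadjusted edgeR p of 0.102. Stromal markers of the fat pad moved in the same direction: 8 markers, led by Col3a1 and Col1a1, summed to 4154, 4946 and 4502 CPM in the Egr1+/+ mice and 3446, 2494 and 2803 CPM in the Egr1-/- mice. The part of stromal cells in the Me1 level was not tested.

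Elovl6 encodes the elongase that carries palmitate on to stearate. The gene (ENSMUSG00000041220.10) lies on the plus strand of chromosome 3, between 129532355 and 129638495. Its level was 34.0, 21.7 and 23.3 CPM in the Egr1+/+ mice and 39.0, 36.3 and 46.4 CPM in the Egr1-/- mice. Every Egr1-/- mouse was above every Egr1+/+ mouse, though Egr1-/- replicate 2 and Egr1+/+ replicate 1 lay close together. In edgeR its log2 fold change was 0.62 (SE 0.181), with an unadjusted p of 0.00725 and an adjusted p of 0.269. The DESeq2 adjusted p was 0.0480. With each mouse left out, the log2 fold change stayed between 0.50 and 0.83.

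Scd1 and Scd2 encode stearoyl-CoA desaturases, which turn stearate into oleate. Both genes lie on chromosome 19, Scd1 (ENSMUSG00000037071.2) between 44394455 and 44407879 on the minus strand and Scd2 (ENSMUSG00000025203.5) between 44293674 and 44306864 on the plus strand. Scd1 was among the most abundant transcripts of the tissue, with 0.758% to 3.002% of all non-mitochondrial counts. Its level was 13140, 12545 and 7741 CPM in the Egr1+/+ mice and 9134, 3075 and 6301 CPM in the Egr1-/- mice. The genotypes overlapped, since Egr1-/- replicate 1 was above Egr1+/+ replicate 3, and the lowest mouse was Egr1-/- replicate 2. Scd1 thus had a log2 fold change of -0.85 (SE 0.371), an unadjusted p of 0.0468 and an adjusted p of 0.459 in edgeR. The DESeq2 adjusted p was 0.526. Leaving out Egr1-/- replicate 2 gave -0.53 and leaving out Egr1-/- replicate 1 gave -1.25, so the estimate moved with these mice.

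Scd2 had 125.4, 52.0 and 62.5 CPM in the Egr1+/+ mice and 54.5, 52.6 and 71.9 CPM in the Egr1-/- mice. A high value in Egr1+/+ replicate 1 stood apart from the other 5 mice, which lay between 52.0 and 71.9 CPM. The estimate in edgeR was a log2 fold change of -0.42 (SE 0.298, adjusted p 0.679), and 0.04 without Egr1+/+ replicate 1. This was also the mouse with the most Fasn. Per kb of exon, Scd1 was 65.3 to 269 times as abundant as Scd2. The log2 ratio of Scd2 over Scd1 was 0.62 higher in Egr1-/- SC-WAT, with overlapping genotypes (exact two-sided permutation p = 0.4).

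The abundance of Scd1 limits what can be said of its paralogues. The coding sequences of Scd1 and Scd2 share an identical run of 147 bases. A read of 50 bases from such a stretch fits both genes. Windows of this length that are identical in both genes make up 3.03% of the Scd1 transcript and 2.68% of the Scd2 transcript, and 9.03% and 7.99% when 2 mismatches are allowed. If reads were spread evenly along Scd1, the identical windows would hold 398, 380 and 235 CPM in the Egr1+/+ mice and 277, 93.2 and 191 CPM in the Egr1-/- mice, more than the whole Scd2 level in each mouse. How the authors' counting treated reads that fit several genes is not given in the sources used here, so the Scd2 values are uncertain. Scd3 and Scd4, close paralogues at the same locus, were far lower, at 0.901 ± 0.287 and 0.746 ± 0.0975 CPM (SD, n = 3) in Egr1+/+ fat pads and 0.527 ± 0.339 and 0.374 ± 0.158 CPM (SD, n = 3) in those of Egr1-/- mice. These levels carry the same uncertainty. Acaca and Acacb share 0 identical windows of that length.

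Srebf1 encodes SREBP1, which is made as a membrane precursor and is also controlled after transcription. The gene (ENSMUSG00000020538.15) lies on the minus strand of chromosome 11, between 60199089 and 60222581. Its level was 59.8, 39.2 and 50.2 CPM in the Egr1+/+ mice and 60.3, 57.4 and 76.1 CPM in the Egr1-/- mice. The genotypes overlapped only through Egr1-/- replicate 2 and Egr1+/+ replicate 1. Its log2 fold change was 0.38 (SE 0.174), with an unadjusted p of 0.0584 and an adjusted p of 0.485 in edgeR. The 3′ end of Srebf1 overlaps the end of Rai1 on the other strand, and Rai1 had 320 to 503 counts against 1176 to 2354 counts for Srebf1.

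Mlxipl encodes ChREBP, which is activated by glucose metabolites and switches on lipogenic and glycolytic genes. The gene (ENSMUSG00000005373.13) lies on the plus strand of chromosome 5, between 135089890 and 135138382. Its level was 17.6, 12.1 and 19.7 CPM in the Egr1+/+ mice and 26.8, 29.0 and 32.1 CPM in the Egr1-/- mice, from 363 to 994 counts per mouse. Every Egr1-/- mouse was above every Egr1+/+ mouse, and the means were 29.3 ± 2.66 CPM (SD, n = 3) and 16.5 ± 3.94 CPM (SD, n = 3), 1.78 times higher without Egr1. Its log2 fold change of 0.83 (SE 0.178) had an unadjusted p of 0.00114 in edgeR, the lowest of the 10 genes, and an adjusted p of 0.176. The DESeq2 adjusted p was 0.00344. With each mouse left out, it stayed between 0.65 and 0.98, with an unadjusted edgeR p at or under 0.00552. Within each mouse, the log2 ratio of Mlxipl over Srebf1 was -1.60 ± 0.221 (SD, n = 3) in Egr1+/+ and -1.13 ± 0.134 (SD, n = 3) in Egr1-/- SC-WAT. The genotypes did not overlap (difference 0.47, exact two-sided permutation p = 0.1, the smallest this design allows).

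**Figure D4:**
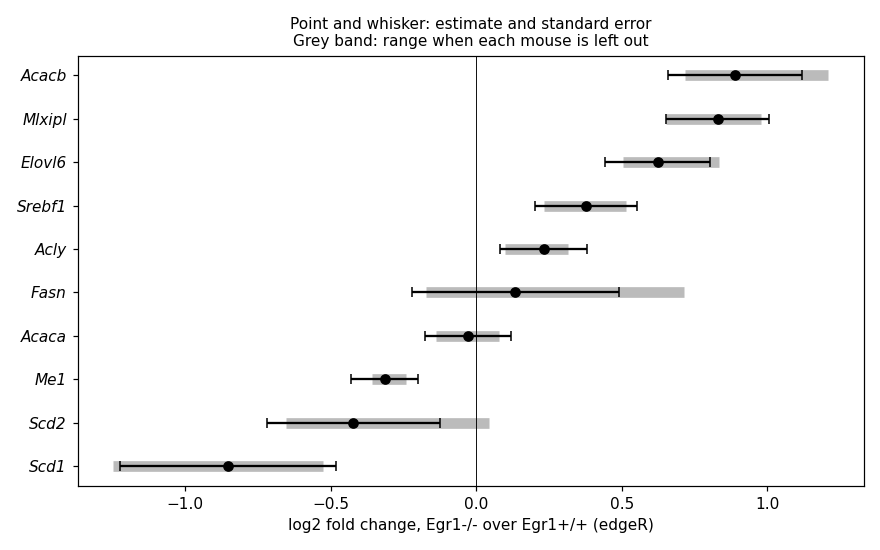
The log2 fold change of each gene in Egr1-/- over Egr1+/+ SC-WAT from edgeR, with its standard error as whiskers and, as a grey band, the range of the estimates when each of the 6 mice was left out. The bands of Acacb, Mlxipl, Elovl6, Srebf1 and Acly lie wholly above 0, those of Me1 and Scd1 wholly below it, and those of Fasn, Acaca and Scd2 cross it.

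Mlxipl has 2 annotated transcription starts, 17001 bases apart. The downstream start gives the long form, ChREBP-alpha, and the upstream start gives the short form, ChREBP-beta, which lacks the glucose-inhibited part and is itself induced by ChREBP. Counts per gene add both forms, so which of them was higher in Egr1-/- SC-WAT cannot be told apart here. The stretch around each start (250 bases before and 50 after it, from RefSeq, GRCm38.p6) were searched on both strands for the letters of 4 motifs. For the 10 genes, 12 promoters of 8 genes were found, and Scd1 and Scd2 were not matched. The only stretches found for Acaca (84195188 to 84195487) and Acacb (114165268 to 114165567) lie inside these genes. The outermost starts of Acaca and Acacb, at the gene ends given above, were therefore not searched. The following stretches of 30 bases are shown because each holds a motif of a factor that the comparison or the pathway is about, with the motif in capitals, read along the gene's strand.
Mlxipl, upstream start, E-box: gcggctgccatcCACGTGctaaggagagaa
Mlxipl, downstream start, SREBP motif: atcagtggttTCACACCACgctcactggtt
Me1, EGR1 motif: gccggagcccCGCCCCCGCcccctcgcacg
Fasn, NF-Y motif: ccgcgcgccgccATTGGgccaccgagaacg
Acacb, NF-Y motif: gtacaagggaccCCAATagccttgccccac

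The E-box CACGTG, part of the element that ChREBP binds, was at chr5:135089780-135089809, with the motif 98 bases before the upstream Mlxipl start, and 7.15% of all 32851 promoters held these letters. The SREBP motif TCACNCCAC was at chr5:135106745-135106774, with the motif 136 bases before the downstream Mlxipl start, and 1.24% of promoters held it. The EGR1 motif GCGNGGGCG was found in 1 of the 12 promoters, that of Me1, at chr9:86695942-86695971 on the minus strand, with the motif reversed and 47 bases before the start. It was in 5.55% of all promoters. The NF-Y motif CCAAT was in 7 of the 12 promoters, of 6 genes, against 37.4% of all promoters. Fasn held it 3 times, 2 of them overlapping on opposite strands, and the copy shown lies at chr11:120824620-120824649 on the minus strand, with the motif 90 bases before the start. The Acacb copy lies at chr5:114165419-114165448, with the motif 87 bases before the RefSeq start that lies inside the gene. A match of letters does not show binding.

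The other genes of the pathway were followed in 9 lists. Of 99 listed genes, 98 were matched and 94 tested. In edgeR 0 of them passed the adjusted threshold, and at an unadjusted p under 0.05 there were 21 higher and 6 lower, against 5.06% and 5.6% of all genes. DESeq2 called 5 higher and 1 lower, against 0.843% and 1.3% of its genes. The median log2 fold change over the 94 genes was 0.13.

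Of 11 genes for acetyl-CoA supply and citrate export, 10 had a log2 fold change above 0. In edgeR 4 of the 11 were higher and 1 lower at an unadjusted p under 0.05, with a list median of 0.25. Cs, the citrate synthase of the mitochondrion, was 322.6, 265.6 and 294.7 CPM in the Egr1+/+ mice and 481.0, 377.2 and 609.2 CPM in the Egr1-/- mice. All Egr1-/- mice were above all Egr1+/+ mice, with a log2 fold change of 0.73, an adjusted p of 0.227 in edgeR and 0.00357 in DESeq2. Pcx, pyruvate carboxylase, had a log2 fold change of 0.41, and Pdha1, a pyruvate dehydrogenase subunit and the most abundant gene of the list per kb, one of 0.34. Slc25a10, the mitochondrial dicarboxylate carrier, was lower in every Egr1-/- mouse, at -0.43. Citrate synthase and pyruvate dehydrogenase also serve respiration, and the beige or brown adipocyte marker sum was higher in the same mice. Its part in these levels was not tested.

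Of 7 other genes for cytosolic NADPH, 2 were higher and 0 lower at an unadjusted p under 0.05, and the list median was 0.31, where Me1 had -0.31. Tkt and Pgls, of the pentose phosphate pathway, had log2 fold changes of 0.53 and 0.41, Taldo1, of the same pathway, 0.32, and Idh1, the cytosolic isocitrate dehydrogenase and the most abundant of the list per kb, -0.04. Their adjusted p in edgeR was 0.319 or above.

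Beyond Elovl6, the elongation genes had no common direction. Among 10 tested of 12, 1 was higher and 2 were lower at an unadjusted p under 0.05, and the list median was 0.04. Tecr, the last reductase of the elongation cycle, had a log2 fold change of 0.34, and Hsd17b12, its ketoreductase, one of 0.30. Hacd1, a dehydratase of the cycle best known in muscle, was lower in every Egr1-/- mouse, at -0.39. Elovl4, which makes very long chains, was at -1.25 but had low levels, with means of 0.828 CPM in Egr1+/+ and 0.345 CPM in Egr1-/- mice (n = 3 each). Elovl2 and Elovl3 had too few counts for the test.

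Among the genes of other desaturases and their electron carriers, 7 of 9 had a log2 fold change below 0, as Scd1 and Scd2 did. Of these 9 genes, 0 were higher and 3 lower at an unadjusted p under 0.05 in edgeR. The 3 were Cyb5r3, Fads3 and Scd4, the last at means of only 0.746 CPM in Egr1+/+ and 0.374 CPM in Egr1-/- mice. The list median was -0.22, and DESeq2 called 1. That gene was Cyb5r3, the NADH-cytochrome b5 reductase that passes electrons to the desaturases, at 74.7, 52.5 and 59.9 CPM in the Egr1+/+ mice and 43.0, 29.7 and 37.3 CPM in the Egr1-/- mice. The genotypes did not overlap, and the log2 fold change was -0.77, with an adjusted p of 0.193 in edgeR and 0.00366 in DESeq2. Fads3, of the fatty acid desaturase cluster, was at -0.34, and Cyb5b, the outer mitochondrial cytochrome b5 and most abundant of the list per kb, at 0.27. Cyb5r3 is widely expressed, and the stromal marker sum was lower in the same mice. The part of stromal cells in its level was not tested.

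Among 13 regulators of the carboxylases, 1 was higher and 0 were lower at an unadjusted p under 0.05, and the list median was -0.02. Thrsp, the lipogenesis-associated Spot 14 protein, was 211.2, 139.0 and 142.5 CPM in the Egr1+/+ mice and 227.0, 282.6 and 483.5 CPM in the Egr1-/- mice. All Egr1-/- mice were above all Egr1+/+ mice, but Egr1-/- replicate 1 by little. Its log2 fold change was 1.01 (SE 0.281), with an adjusted p of 0.252 in edgeR and 0.226 in DESeq2. Prkag2, a subunit of the AMP-activated kinase that inactivates both carboxylases, was at 0.35 with overlapping genotypes. Brca1, whose protein binds phosphorylated ACC1, was at -0.34, also overlapping.

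Of 14 tested transcription factors and SREBP processing genes other than Srebf1 and Mlxipl, 1 was higher and 0 lower at an unadjusted p under 0.05, with a list median of 0.05. That gene was Scap, the escort protein of SREBP, at 0.36. Insig1, which retains SREBP in the endoplasmic reticulum and is itself an SREBP target, was at -0.46 and overlapped, and Nr1h2, which encodes the liver X receptor LXRB, was at 0.19. Of 10 tested further targets of ChREBP or LXR, 3 were higher and 0 lower, and 2 were called by DESeq2, with a list median of 0.12. Pnpla3, a lipid droplet acyltransferase and lipase, was 68.7, 39.6 and 36.6 CPM in the Egr1+/+ mice and 104.2, 89.97 and 92.0 CPM in the Egr1-/- mice. Gpd1, the glycerol-3-phosphate dehydrogenase, was 571.6, 390.1 and 378.7 CPM in the Egr1+/+ mice and 750.4, 607.6 and 958.2 CPM in the Egr1-/- mice. Neither gene overlapped between genotypes. Their log2 fold changes were 0.98 and 0.79, with adjusted p of 0.198 and 0.249 in edgeR and 5.9e-04 and 0.00527 in DESeq2. Lpcat3, a phospholipid acyltransferase and LXR target, was at 0.42.

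Genes that place the finished fatty acid on glycerol had the highest median of the 9 lists, 0.44. Of 11 genes, 6 were higher and 0 lower at an unadjusted p under 0.05, and 4 were higher in every Egr1-/- mouse. Dgat2, which catalyses the last acylation, was 222.0, 132.7 and 129.6 CPM in the Egr1+/+ mice and 257.5, 240.9 and 325.1 CPM in the Egr1-/- mice, a log2 fold change of 0.77 with an adjusted p of 0.269 in edgeR and 0.0116 in DESeq2. Dgat1 and Agpat1, of the same route, were at 0.49 and 0.42 without overlap. Mitochondrial fatty acid synthesis, a separate pathway that makes the precursor of lipoic acid, had a median of 0.35 over 9 genes, with 3 higher and 0 lower. Mecr, its enoyl reductase, was 14.5, 14.5 and 13.6 CPM in the Egr1+/+ mice and 22.1, 19.5 and 23.2 CPM in the Egr1-/- mice, with a log2 fold change of 0.61 and an adjusted p of 0.160 in edgeR and 0.0132 in DESeq2. Acsf3, which makes mitochondrial malonyl-CoA, was at 0.38 without overlap, and Ndufab1, the acyl carrier protein, at 0.35. Lias, the lipoic acid synthase, was at 0.21 and overlapped.

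**Figure D5:**
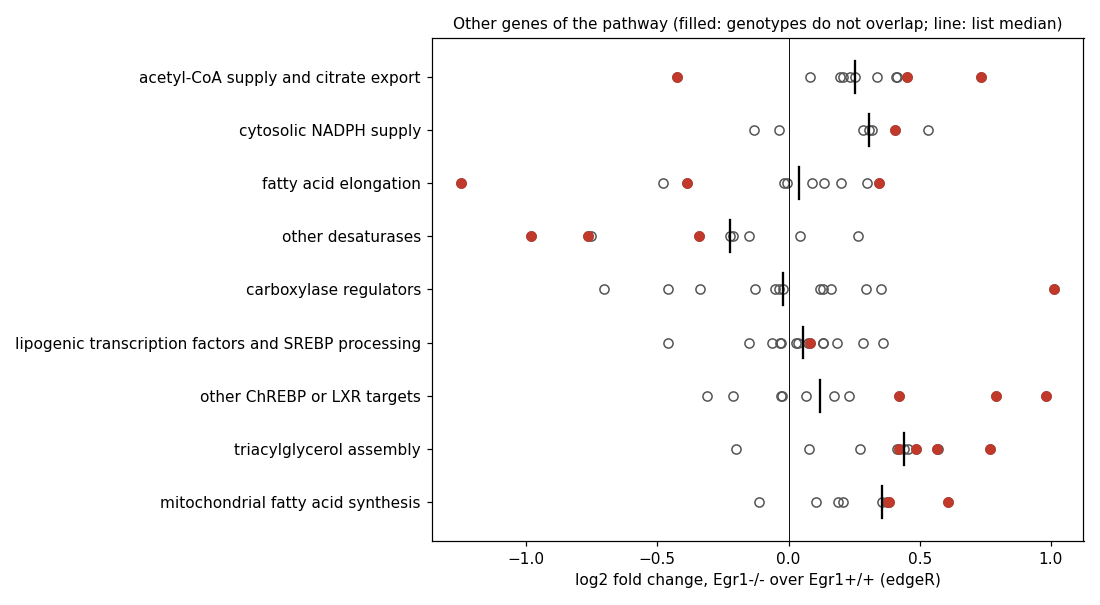
The log2 fold change in Egr1-/- over Egr1+/+ SC-WAT of each tested gene of the 9 lists (edgeR), one circle per gene, filled in red where the 3 mice of one genotype lie wholly above the other, with a vertical line at each list's median. The medians of triacylglycerol assembly (0.44), mitochondrial fatty acid synthesis (0.35) and NADPH supply (0.31) lie furthest above 0, and that of the other desaturases (-0.22) furthest below it.

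The mean profile of the 10 genes over the 6 mice, in log2 CPM centred on each gene's mean, was 0.23, -0.21 and -0.27 in Egr1+/+ replicates 1 to 3, against 0.08, -0.09 and 0.27 in their Egr1-/- counterparts. It was highest in Egr1-/- replicate 3 and Egr1+/+ replicate 1, and so did not separate the genotypes. By root mean square, the spread of a gene around its own mean was smallest for Acaca (0.15) and largest for Scd1 (0.71) among the 10. Among 7259 other genes with at least 10 CPM, the 5 closest to this mean profile were Naxe (root mean square difference 0.0378 over the 6 mice), Aldh5a1 (0.0422), Atp6v1d (0.0447), Fkbp4 (0.0481) and Acss2 (0.0542).

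The adipocyte marker sums of the 6 mice were within 1.26-fold of each other. Of the 10 markers in this sum, 1 was higher and 2 were lower in every Egr1-/- mouse, against 8.15% and 8.1% of all genes tested. The sum is led by its most abundant genes, so it does not show that each marker, or the share of adipocytes, was even. Macrophage markers, led by Mrc1 and Lyz2, summed to 335 to 476 CPM in Egr1+/+ and 263 to 315 CPM in Egr1-/- SC-WAT. Lymphocyte markers, led by Ptprc and Ms4a1, summed to 318 to 693 CPM, and endothelial markers, led by Cdh5 and Kdr, to 340 to 514 CPM, and both overlapped between genotypes. Processed copies of members were checked for lost reads. Gm11295, a copy of Elovl6, and Gm7329, a partial copy of Me1, had at most 1 count in any mouse. Gm5182, which is 99.2% identical to Acaca over 6118 bases, and Gm7049, which is 98.5% identical to Me1 over 1638 bases, were not matched to an identifier in the files. Reads shared with these copies were not assessed here.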

How the data were processed

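Total RNA of inguinal SC-WAT was freed of ribosomal RNA with a kit, and strand-specific libraries were sequenced (single-end reads of 50 bases per the labels, paired-end per the study's methods). The authors mapped reads to GRCm38 with TopHat2 and Bowtie2, counted them per gene of GENCODE M8 with featureCounts, and deposited raw counts for each mouse. Strand and multimapping settings are not given in the sources used here, and the Galaxy workflow to which the study links was not used here. The study drew the 6 mice from fewer litters than mice, so mice may not be fully independent.

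Identifiers were named with GENCODE M21 (46488 of 47069 matched). Counts were tested with edgeR 4.0.16 in R 4.3.3 (TMM, filterByExpr, quasi-likelihood test, Benjamini-Hochberg adjustment over 17667 genes, threshold 0.05), without covariates. The standard error (SE) was obtained by dividing the log2 fold change by the root of its F statistic. Log2 CPM used a prior count of 2. Levels per kb used the union of exons. No 2 libraries were identical. Transcripts were compared with blastn 2.17.0. The tests were tried on simulated data. Alternatives were DESeq2 1.42.0, limma-voom (limma 3.58.1), other normalizations and filters, a replicate block and leaving out each mouse. The 10 genes, pathway lists and marker lists were chosen with earlier results of these data known. Named beside the 10 genes are Egr1, the 3 genes with the lowest p and the most expressed gene of each pathway list, Scd3 and Scd4, the 2 most expressed genes of each marker list, and the 5 genes closest in profile. The result of 1 marker list is not reported here.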

Additional observations from a re-analysis of the deposited data

How the results depend on the processing

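The number of genes passing an adjusted p of 0.05 was 3 in edgeR, 333 in DESeq2, 1 in limma-voom, 0 with upper-quartile normalization and 552 without a filter on low counts. With a replicate block it was 0, and leaving out each mouse gave 0 to 59, with 59 without Egr1-/- replicate 1 and 0 otherwise. At an unadjusted p under 0.05 edgeR gave 1884. Of the 10 members, 0 passed in edgeR, 3 in DESeq2 and 4 (Acacb, Elovl6, Mlxipl and Scd1) without the filter. Of the pathway lists, 0 passed in edgeR, 6 in DESeq2 and 10 without the filter. Of all genes, 0.017% passed in edgeR and 2.14% in DESeq2. The number of genes tested without the filter is not given here, so those 4 and 10 cannot be set against a share. Members at an unadjusted p under 0.05 numbered 3 to 5 with each mouse left out. For 44 named genes under 14 alternatives, 607 of 616 log2 fold changes kept their direction. The 9 that turned came from leaving out a mouse, with ranges of -0.14 to 0.0783 for Acaca, -0.17 to 0.71 for Fasn, -0.65 to 0.0439 for Scd2 and -0.18 to 0.12 for Idh1, and the cause was not tested. No ratio within mice turned. Same-numbered mice correlated at -0.0888, 0.106 and -0.126 in their deviations from the genotype means over 17667 genes, and only replicate 2 correlated best with its own number, so the numbers were not taken as pairs. The replicate block changed no call among the 10 genes. At the adjusted threshold edgeR did not call Egr1, at a log2 fold change of -2.19 (adjusted p 0.0878), or Ucp1, at 1.22 (adjusted p 0.151). With 3 mice per genotype, smaller changes in variable genes such as Fasn could not be resolved.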
